A study of Saccharomyces cerevisiae with 12 samples.

Results

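U5 is the small nuclear RNA (snRNA) at the centre of the spliceosome, the machine that removes introns from pre-mRNA. It enters the spliceosome in the tri-snRNP, a particle in which U5 is joined to the base-paired U4 and U6 snRNAs, and its invariant loop 1 holds the exons for ligation. Like U1, which binds the 5′ splice site, U2, which pairs with the branch site, and U4, it carries a ring of Sm proteins on a uridine-rich Sm site, and its main protein partner is Prp8. In yeast the RNA has a long and a short form that differ at the 3′ end. U5 was measured here as 1 of 11 RNAs in the RiboMeth-seq tables, and its rows were taken by the RNA name U5, with 215 nucleotides in each of 12 libraries.

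RiboMeth-seq reads ribose methylation from the ends of RNA fragments. Alkaline treatment cuts beside a methylated nucleotide less often, and a methylated position therefore shows up as a dip in the end counts. The libraries were made from total RNA of exponentially growing budding yeast in 4 groups of 3. They compared cells that had active Dbp7, a nucleolar RNA helicase of large ribosomal subunit assembly, with cells that had none. WT + EV is a strain of the BY4741 background with an empty plasmid. Δdbp7 + EV lacks the DBP7 gene and carries the same empty plasmid. Δdbp7 + Dbp7WT and Δdbp7 + Dbp7DQGD are the deletion strain with a low-copy pRS415 plasmid that expresses, from the DBP7 promoter, either the wild-type protein or one without catalytic activity, in which a glutamine replaces the glutamate of the DEGD motif. The first and the third group are called libraries with active Dbp7 below, and the second and the fourth libraries without it. The 3 groups other than WT + EV derive from a deletion strain of a strain collection. Growth is slowed in both groups without active Dbp7 according to the study, so growth rate and Dbp7 activity cannot be told apart in any of the comparisons.

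The deposited U5 entry is printed to show where the landmarks lie, with loop 1 (GCCUUUUAC, nucleotides 94 to 102) and the Sm site (AUUUUUUG, nucleotides 168 to 175) in capitals, both found by an exact match within the entry.
U5: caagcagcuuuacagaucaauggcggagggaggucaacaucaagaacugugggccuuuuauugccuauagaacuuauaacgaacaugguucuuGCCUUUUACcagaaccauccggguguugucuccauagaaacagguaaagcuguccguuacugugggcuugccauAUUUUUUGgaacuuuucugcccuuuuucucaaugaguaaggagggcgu
Positions are those of this entry. It is 1 nucleotide longer than the annotated long form SNR7-L, which has 214 nucleotides, while the short form SNR7-S has 179. Where the extra nucleotide lies was not determined, and at the 5′ end it would place nucleotide 180 in the short form. Counted from the first nucleotide of the entry, the following stretch (nucleotides 180 to 215) lies past the short form and marks the long form.
Past the short form: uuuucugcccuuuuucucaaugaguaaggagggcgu

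U5 read ends were several times more frequent, relative to ribosomal RNA (rRNA), in cells without active Dbp7. The level is the number of 5′ and 3′ read ends on U5 per 1000000 read ends on the 18S, 25S and 5.8S rRNAs. In WT + EV it was 79.9, 107.8 and 129.5 in replicates 1, 2 and 3. In Δdbp7 + EV it was 778.4, 506.7 and 659.8. All 3 Δdbp7 + EV libraries thus lay above all 3 of WT + EV.

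In Δdbp7 + Dbp7WT the level was 49.6, 71.2 and 89.4, the lowest of the 4 groups. In Δdbp7 + Dbp7DQGD it was 511.4, 614.4 and 670.1. The 6 libraries with active Dbp7 reached 129.5 at most, and the 6 without it began at 506.7, so both sides were separate. The counts behind these levels ran from 774 read ends in Δdbp7 + Dbp7WT replicate 1 to 6345 in Δdbp7 + Dbp7DQGD replicate 2, in libraries of 5580519 to 23549872 read ends. The 5′ and the 3′ ends on U5 differed by at most 6 in any library, so the summed ends count nearly every read at both of its ends. By 5′ ends alone, 1 per read, the lowest library held 387 reads or 49.6 per 1000000 (95% Wilson interval 44.9 to 54.8). The highest, Δdbp7 + EV replicate 1, held 2978 reads or 777 per 1000000 (749 to 805). Both intervals cover counting error only.

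**Figure D1:**
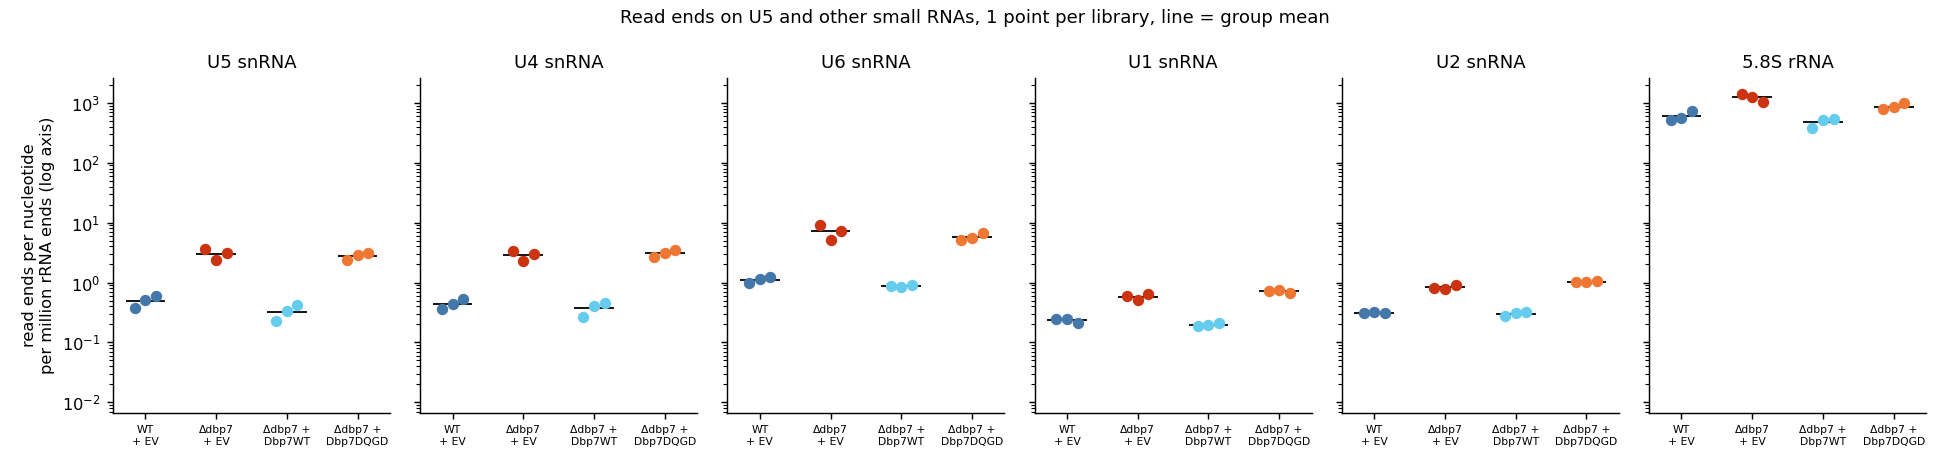
Read ends per nucleotide and per 1000000 rRNA read ends (log axis) for U5, the 4 other spliceosomal snRNAs and 5.8S rRNA, with 1 point per library, 3 libraries per group and a line at the group mean. U5 has a mean of 0.492 in WT + EV and 0.326 in Δdbp7 + Dbp7WT, and of 3.02 in Δdbp7 + EV and 2.78 in Δdbp7 + Dbp7DQGD.

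These differences exceeded the spread between libraries. In Δdbp7 + EV against WT + EV, U5 was 2.62 higher on the log2 scale (SE 0.26, a 6.15-fold difference), with an adjusted p = 2.99e-06 in edgeR's quasi-likelihood test with Benjamini-Hochberg adjustment over the 8 RNAs tested. In Δdbp7 + Dbp7DQGD against Δdbp7 + Dbp7WT the same test gave 3.10 (SE 0.27, 8.55-fold, adjusted p = 8.03e-07). Pooling both groups on each side gave 2.86 (SE 0.19, 7.25-fold, adjusted p = 6.19e-08). U5 was higher in 6 of 6 same-numbered pairs, which follows from the separate sides and adds nothing to them. With 5′ ends alone the pooled value was 2.86 (SE 0.18, edgeR adjusted p = 5.63e-08). For the pooled difference, a two-sided exact permutation test of 6 against 6 libraries gave p = 0.00216, the smallest value it allows. Within each comparison of 3 against 3 libraries it gave 0.1, again the smallest possible.

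The call is not particular to U5, since edgeR called 100% of the 8 RNAs tested in each of these comparisons, 7 of them higher and 25S rRNA lower. The rRNAs are set against their own sum, so they cannot all be higher. The 4 other snRNAs lie outside that sum, and all were higher. The levels are relative, so more U5 and less rRNA per cell cannot be told apart. The group order from low to high was Δdbp7 + Dbp7WT, WT + EV, Δdbp7 + Dbp7DQGD and Δdbp7 + EV. The lower pair did not differ past the threshold (Δdbp7 + Dbp7WT minus WT + EV was -0.59 on the log2 scale, SE 0.25, edgeR adjusted p = 0.158). Here edgeR called 0% of the RNAs, as 0 of 8 passed, with 2 at an unadjusted p under 0.05, and DESeq2 also called 0. The upper pair did not differ past the threshold either (Δdbp7 + Dbp7DQGD minus Δdbp7 + EV was -0.11, SE 0.24, edgeR adjusted p = 0.648, with 37.5% of the RNAs called). The difference in the plasmid-complemented pair exceeded that in the EV pair by 0.48 on the log2 scale, which missed the threshold (fitted as -0.48, SE 0.35, edgeR adjusted p = 0.404).

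The rRNAs themselves differed between the same libraries, which bears on any level set against them. The 5.8S and 25S rRNAs are both parts of the large subunit. The ratio of 5.8S to 25S read ends was 0.0931 to 0.191 in the 6 libraries with active Dbp7 and 0.235 to 0.498 in the 6 without, a 2.45-fold difference in the pooled comparison (exact permutation p = 0.00216). The ratio of 25S to 18S read ends was 2.02 to 2.19 with active Dbp7 and 1.35 to 1.57 without. With the short 5.8S rRNA alone as reference, an alternative chosen after seeing the data, the pooled U5 difference was 1.92 on the log2 scale (SE 0.15, edgeR adjusted p = 3.74e-18), against 2.64 with 18S and 3.20 with 25S rRNA. The exact permutation test gave p = 0.00216 with 5.8S, 18S and 25S rRNA alike. The smaller edgeR p with 5.8S rRNA is therefore not read as stronger evidence.

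Differences between the groups were also unequal by RNA length. From the shortest to the longest entry, the ratio of the geometric mean level without to that with active Dbp7 was 6.50 for U6 (112 nucleotides), 1.94 for 5.8S rRNA (158), 7.41 for U4 (160) and 7.33 for U5 (215). It was 2.99 for U1 (569), 3.03 for U2 (1171), 1.16 for 18S rRNA (1800) and 0.792 for 25S rRNA (3396). All snRNAs longer than U5 thus had smaller ratios, and those shorter than U5 had ratios near its own, while 5.8S rRNA is as short and had a smaller one. Fragments of 20 to 40 nucleotides had been cut from a gel, and the part of RNA length, fragmentation or recovery in the U5 difference was not tested.

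**Figure D2:**
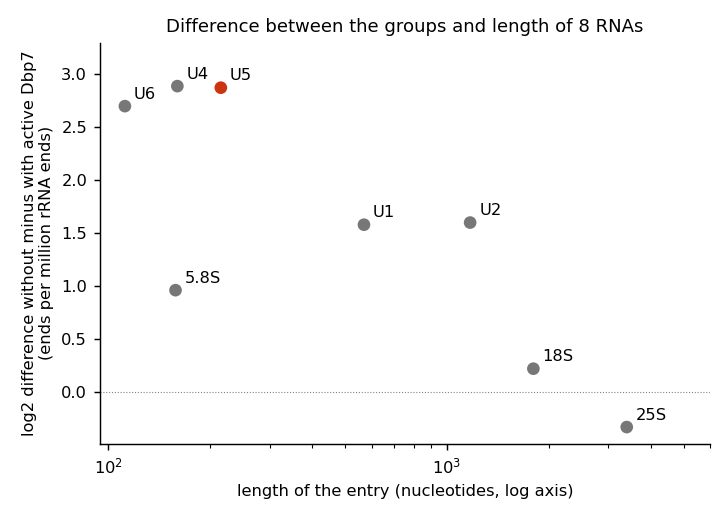
Difference in level between the 6 libraries without and the 6 with active Dbp7 (log2, vertical axis, ends per 1000000 rRNA ends) against the length of the entry in nucleotides (log axis), 1 point per RNA, U5 in red. U5 (2.87), U4 (2.89) and U6 (2.70) lie together, above U1 (1.58), U2 (1.60) and 5.8S rRNA (0.96).

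U4 and U6, the partners of U5 in the tri-snRNP, had the level patterns most like that of U5 among the other 7 RNAs with enough ends. Pearson's r of the log2 levels over the 12 libraries was 0.99 for both, but these libraries fall into 2 separate clusters and share the rRNA denominator. Within the 6 libraries with active Dbp7 it was 0.93 for U4 and 0.86 for U6, and within the 6 without it was 0.85 and 0.94. For U1 it was 0.58 and 0.07 in those sets, and for U2 0.74 and -0.06. 5.8S rRNA had 0.95 and 0.47. These coefficients describe 6 libraries each and carry no test.

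Per nucleotide, U5 and U4 were at similar levels, and U6 higher. U5 had 0.409 ± 0.131 ends per nucleotide and per 1000000 rRNA ends with active Dbp7 (SD, n = 6) and 2.90 ± 0.482 without. U4, the snRNA that keeps U6 inactive until the spliceosome is activated, had 0.409 ± 0.0906 and 2.99 ± 0.440. U6, made by RNA polymerase III and part of the catalytic centre, had 0.991 ± 0.158 and 6.52 ± 1.57. The means of U1 and U2 lay below that of U5 on both sides. They were 0.217 ± 0.0244 and 0.307 ± 0.0186 with active Dbp7, and 0.649 ± 0.0895 and 0.935 ± 0.113 without. In Δdbp7 + Dbp7WT replicate 1, U2 (0.272) lay above U5 (0.231).

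A ratio between snRNAs within a library makes no use of rRNA. U5 was compared with the sum of U1, U2, U4 and U6, and its ends were 0.119, 0.150 and 0.185 times that sum in WT + EV. In Δdbp7 + EV the ratio was 0.274, 0.234 and 0.240, all above WT + EV. In Δdbp7 + Dbp7WT it was 0.0879, 0.113 and 0.133, and in Δdbp7 + Dbp7DQGD 0.196, 0.226 and 0.227, again with no overlap.

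The pooled difference was 0.86 on the log2 scale (1.81-fold), with p = 0.00216 in a two-sided exact permutation test (0.00433 after Benjamini-Hochberg adjustment over 6 pooled ratio tests). The ratio was higher in 6 of 6 pairs, which follows from sides that do not overlap. The EV pair differed by 0.74 and the plasmid pair by 0.98, each at an exact p of 0.1, the smallest that 3 against 3 libraries allow. This result depended on the partner. Against U1 the pooled difference was 1.30 and against U2 it was 1.28, each with no overlap between the sides, an exact permutation p = 0.00216 and an adjusted value of 0.00433.

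Against its tri-snRNP partners, U5 was not called. The log2 ratio of U5 to U4 ends was 0.46, 0.62 and 0.62 in WT + EV, 0.55, 0.45 and 0.46 in Δdbp7 + EV, 0.25, 0.13 and 0.28 in Δdbp7 + Dbp7WT, and 0.25, 0.31 and 0.24 in Δdbp7 + Dbp7DQGD. The pooled difference was -0.01 (exact permutation p = 0.874, adjusted over the 6 tests 0.874). All 6 libraries with the empty plasmid lay above all 6 with a Dbp7 plasmid, whichever side of the comparison they were on, an arrangement seen after the values were known and not tested.

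The log2 ratio of U5 to U6 ends lay between -0.46 and -0.08 in WT + EV, between -0.40 and -0.19 in Δdbp7 + EV, between -0.95 and -0.18 in Δdbp7 + Dbp7WT, and between -0.18 and -0.02 in Δdbp7 + Dbp7DQGD. The widest group held Δdbp7 + Dbp7WT replicate 1, the library with the fewest U5 ends. The pooled difference was 0.17 (exact permutation p = 0.251, adjusted 0.377), with -0.04 in the EV pair (exact p = 0.8) and 0.39 in the plasmid pair (exact p = 0.1, the smallest possible). In the plasmid pair all Δdbp7 + Dbp7DQGD libraries lay above all Δdbp7 + Dbp7WT libraries, by a narrow margin.

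**Figure D3:**
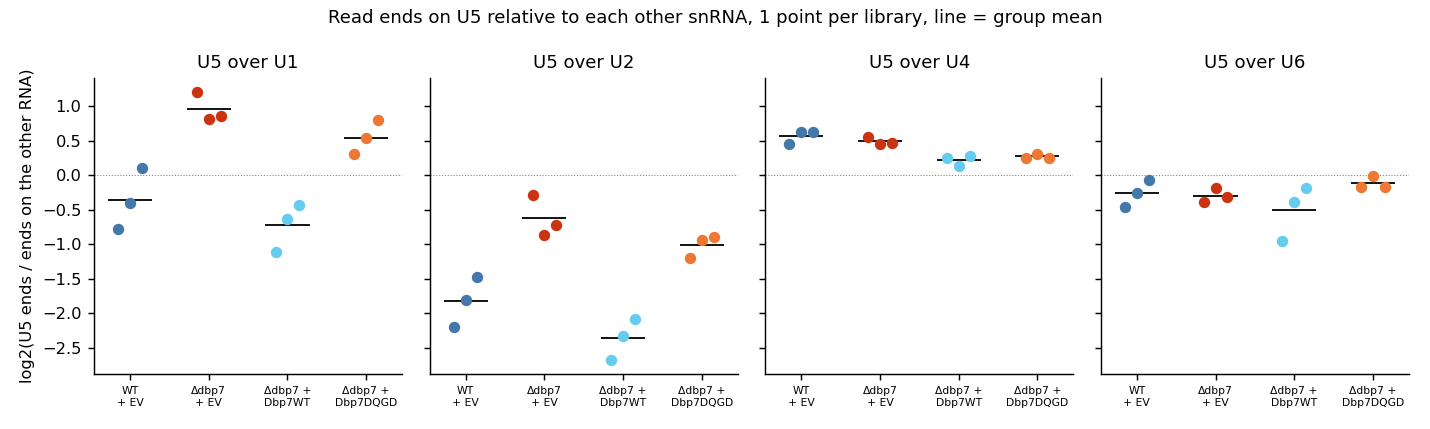
Log2 ratio of U5 read ends to those on U1, U2, U4 and U6 (vertical axis), 1 point per library, 3 per group, with a line at the group mean. The groups without active Dbp7 lie above the others for U1 and U2, by 1.30 and 1.28 in the pooled comparison, and overlap with them for U4 and U6.

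The box C/D RNAs of pre-rRNA processing gave no such partner. U14 had 0 ends in all 12 libraries, U3 copy a had 0 to 2 and U3 copy b 0 to 6, so they stayed under the minimum of 10 ends per library.

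Along the RNA, the read ends of U5 formed a similar uneven profile in every group. Over windows of 20 nucleotides, the shares of U5 ends in any 2 libraries correlated with Pearson's r of 0.907 to 0.996 (median 0.971 over 66 pairs of libraries), a description over 11 windows. The last 2 windows held 1.69% and 1.20% of the ends, against 7.25% to 13.7% in the others. This contrast enters every r, and r without these 2 windows was not computed. The 5′ ends were densest from nucleotide 121 to 140, a stretch 3′ of loop 1, with 22.4% of all 5′ ends (mean of 12 libraries). The 3′ ends were densest in the next window, 141 to 160, with 21.1%.

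Where one kind of end was dense the other could be scarce. Nucleotides 121 to 140 held 3.93% of the 3′ ends, and nucleotides 161 to 180, which contain the Sm site, 1.47% of the 5′ ends but 13.03% of the 3′ ends. Shifting one profile against the other gave the highest correlation (r = 0.735) at 26 nucleotides, which lies within the excised fragment sizes. The first window held 15.7% of the 5′ ends and 0.0681% of the 3′ ends, and the last window, 201 to 215, held no 5′ end. A fragment of at least 20 nucleotides cannot begin less than 20 nucleotides from the 3′ end of an RNA. Nor can it end that close to the 5′ end, so fragment size bounds the ends in the outer windows. On the short form the same bound reaches the window with the Sm site. By base, U made up 30.7% of the entry and carried 32.2% ± 1.60 of its ends (SD, n = 12), and G 23.7% and 22.6% ± 1.39.

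**Figure D4:**
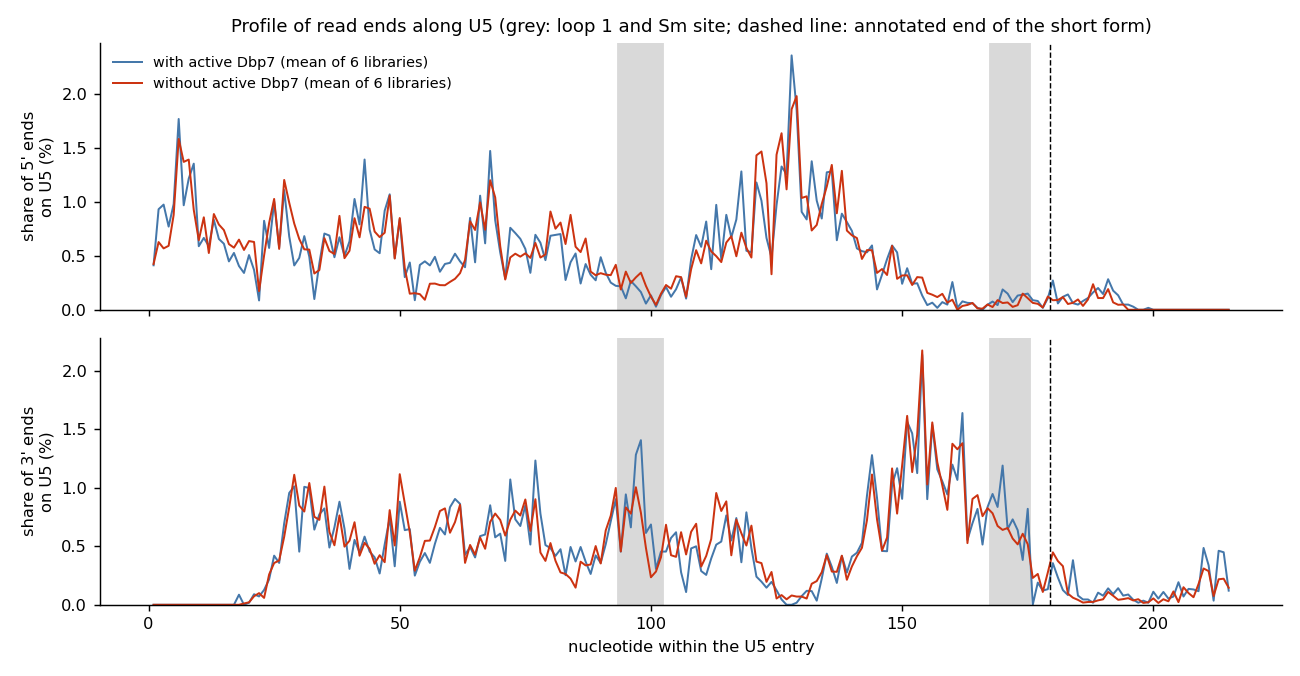
Share of 5′ ends (upper panel) and 3′ ends (lower panel) at each nucleotide of U5 in percent, as the mean of the 6 libraries with (blue) and the 6 without (red) active Dbp7, with loop 1 and the Sm site in grey and the annotated end of the short form dashed. Both lines run closely together, and few ends lie past the short form, 3.63% of U5 ends with and 2.72% without active Dbp7.

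Loop 1 held 3.84% ± 0.54 of U5 ends (SD, n = 12) on 4.19% of its length, with 4.07% ± 0.40 in the 6 libraries with active Dbp7 and 3.62% ± 0.60 in the 6 without. Library values overlapped, from 3.46% to 4.44% and from 2.74% to 4.35%. The Sm site held 3.57% ± 1.09 with and 2.77% ± 0.69 without active Dbp7, with ranges of 2.304% to 5.04% and 1.80% to 3.41%. Most ends at both landmarks were 3′ ends, 1011 of 1333 in loop 1 and 964 of 1083 in the Sm site over all libraries. On the short form, fragments of at least 20 nucleotides cannot begin at the Sm site, which bounds the 5′ ends there.

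No window of U5 passed the test between the groups. All 11 windows passed the minimum of 5 ends in every library. On summed ends edgeR called 0 of them in the EV pair, the plasmid pair and the pooled comparison. At an unadjusted p under 0.05 there were 0 in each. DESeq2 and limma on the same windows also called 0. Over the windows of all RNAs 0% of 380 were called. The largest pooled difference in share of summed ends was at nucleotides 201 to 215, -0.53 on the log2 scale (SE 0.28, edgeR adjusted p = 0.998). With 5′ ends alone edgeR called 0 of 10 U5 windows and 0 of 377 over all RNAs. In U5, 1, 0 and 2 were at an unadjusted p under 0.05. The 2 in the pooled comparison were nucleotides 81 to 100 (0.43, SE 0.19) and 161 to 180 (-0.66, SE 0.31).

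The long form of U5 was followed through nucleotides 180 to 215, which lie past the short form when counted from the first nucleotide of the entry. If the extra nucleotide of the entry is at its 5′ end, U180 belongs to the short form as well. U180 held 79 of the 795 3′ ends in this stretch over all libraries. The long form ratio is the number of 3′ ends per nucleotide past the short form over that from nucleotide 21 to 179. It was 0.355, 0.189 and 0.244 in WT + EV and 0.241, 0.135 and 0.169 in Δdbp7 + EV. It was 0.242, 0.324 and 0.0922 in Δdbp7 + Dbp7WT and 0.197, 0.234 and 0.129 in Δdbp7 + Dbp7DQGD. The groups overlapped, and Δdbp7 + Dbp7WT alone spanned nearly the whole range.

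The log2 difference was -0.52 in the EV pair (exact permutation p = 0.2), with each Δdbp7 + EV library below the WT + EV library of the same number. In the plasmid pair it was -0.09 (exact p = 0.9), and pooled it was -0.31 (exact permutation p = 0.368, adjusted over the 6 tests 0.442). The counts are small, from 12 such 3′ ends in Δdbp7 + Dbp7WT replicate 3 to 160 in Δdbp7 + Dbp7DQGD replicate 2. Without that Δdbp7 + Dbp7WT replicate the pooled difference was -0.56 (exact permutation p = 0.0433, not adjusted over the 6 tests). Leaving out any other single library gave an unadjusted exact permutation p of 0.297 to 0.619. The ratio was below 1 in every library, and it is not the share of long form molecules.

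Ends at the 3′ terminus were few. The last 6 nucleotides held 265 ends in all, every one a 3′ end, with 6 to 58 per library, and the first 6 held 903, every one a 5′ end. Fragments of at least 20 nucleotides allow no other kind of end at either place. The 6 nucleotides around the end of the short form, 177 to 182, held 1.03% ± 0.40 of U5 ends (SD, n = 12) on 2.79% of its length. If the short form boundary is set 1 nucleotide later, to allow for the longer entry (an alternative chosen after seeing the data), the pooled difference was -0.37 (exact permutation p = 0.253).

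**Figure D5:**
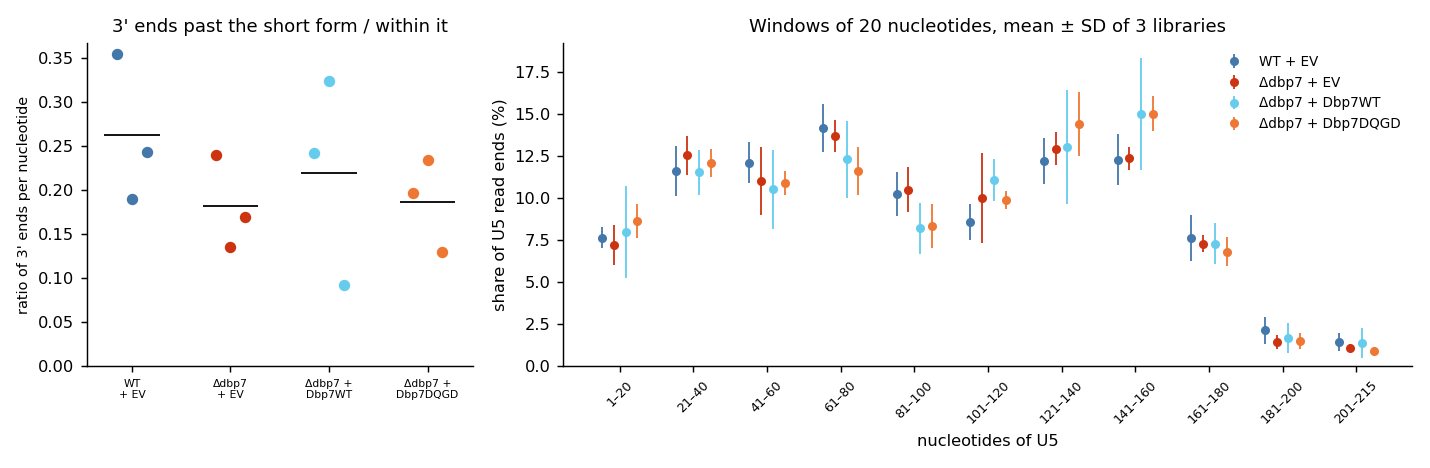
Left, long form ratio of 3′ ends per nucleotide past the short form over those within it, 1 point per library and a line at the group mean. Right, share of U5 read ends in each window of 20 nucleotides in percent, mean ± SD of 3 libraries per group. The groups overlap in the ratio, from 0.0922 to 0.355, and in the windows.

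Scores at single nucleotides were limited by depth. The score is 1 minus the ends at a nucleotide over the weighted mean of the 6 nucleotides on either side, so 1 means no ends and 0 as many as the neighbours or more. The scan asked for a flanking mean of 10 or more in each library, and 0 of the 203 U5 nucleotides with 6 neighbours on both sides reached it. At that minimum 0.0559% of 5363 nucleotides of the other RNAs were called in the pooled comparison. With a minimum of 3, chosen after seeing the data, 142 could be tested, and all scores of single libraries at these positions move in coarse steps.

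Pooled over the 12 libraries, scores in U5 stayed below 0.75. Of its 168 nucleotides with a pooled flanking mean of at least 100, 0 scored 0.75 or more, and their median was 0.0238. By the same measure 18 nucleotides of 18S, 39 of 25S and 3 of 5.8S rRNA scored that high, and 18S and 25S rRNA are known to carry many ribose methylations. U2, U4 and U6 also had 0, with highest scores of 0.619, 0.542 and 0.467. This pool is weighted to the libraries without active Dbp7, which hold 28096 of the 36126 U5 ends. Pooled on each side alone, with a flanking mean of at least 10, 2 of 179 nucleotides reached 0.75 in the 6 libraries with active Dbp7 and 1 of 196 in the 6 without. The first were G22 at 0.879 (4 ends against a flanking mean of 33.0) and G176 at 0.785 (5 against 23.2). Without active Dbp7 G22 scored 0.698 and G176 0.424. The nucleotide on the side without active Dbp7 was G186 at 0.762 (8 against 33.6). These were picked by their scores, on few ends, and carry no test.

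The highest score over all 12 libraries was 0.736 at G22, here with its neighbours (nucleotides 16 to 28, G22 in capitals).
G22: aucaauGgcggag
It had 42 ends in all against a pooled flanking mean of 159. In WT + EV it had 0 ends in 3 of 3 libraries, next to flanking means of 8.07, 8.22 and 5.12. In Δdbp7 + EV it had 7, 2 and 13 ends next to 30.2, 16.3 and 22.0. In Δdbp7 + Dbp7WT it had 3, 0 and 1, so an end count of 0 was not a property of all libraries with active Dbp7. In Δdbp7 + Dbp7DQGD it had 4, 6 and 6, with scores of 0.709, 0.757 and 0.685. Of its ends 27 were 5′ and 15 were 3′ ends.

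The next highest pooled scores were 0.686 at A178, 0.684 at G186, 0.608 at A101 and 0.596 at A198. They rest on 26, 14, 57 and 5 ends. By the mean score over the 12 libraries A199 and G201 also ranked among the highest 5, on 6 and 5 ends. A101 is the adenosine of loop 1, and its score in single libraries ran from 0 to 1 with active Dbp7 and from 0.416 to 0.761 without. In the other direction, U191 had 2.45 times the ends of its flanks, U50 1.87, U180 1.71, U154 1.68 and U48 1.60 times. U48 and U50 stand 2 nucleotides apart in the following stretch (nucleotides 44 to 56, U50 in capitals), and of these 5 nucleotides U154 had the most ends, 424, of which 375 were 3′ ends.
U50: gaacugUgggccu

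In loop 1 the 3′ part had fewer ends than its flanks and most of the 5′ part did not. Pooled scores were 0.159 at U99, 0.439 at U100, 0.608 at A101 and 0.291 at C102, in sequence, and 0.337 at G94, with 0 at C95, C96, U97 and U98. U97 had at least as many ends as its flanks in all 12 libraries, with a score of 0 throughout. U98 scored 0 in 11 of 12 libraries, with 0.766 in WT + EV replicate 1. A pseudouridine, a change of the base that this assay does not read, is known at U99 of U5. Whether that is U99 or U100 of this entry depends on where its extra nucleotide lies. The last uridine of the loop, U100, had 83 ends in all. Its ends over its flanking mean were 1.00, 0.321 and 0.758 in WT + EV and 0.605, 0.0990 and 0.420 in Δdbp7 + EV. They were 0.918, 1.71 and 1.43 in Δdbp7 + Dbp7WT and 0.428, 0.603 and 0.576 in Δdbp7 + Dbp7DQGD.

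The scan of single nucleotides called none in U5. At the minimum of 3, edgeR called 0 of 142 U5 nucleotides in the EV pair, the plasmid pair and the pooled comparison, with 7, 10 and 11 at an unadjusted p under 0.05. DESeq2 called 0 as well, with 2, 8 and 5 at that p, and limma 0, with 11, 19 and 16. Over the 6071 nucleotides of all RNAs, edgeR called 0.0494% in the pooled comparison and 0% in each pair. At an unadjusted p under 0.05 it had 105, 51 and 117 of these 6071. The share at that p was thus larger in U5, and the reason was not tested. With no minimum, edgeR tested 203 U5 nucleotides and called 0, with 7, 14 and 14 at an unadjusted p under 0.05. Over all 7484 nucleotides it called 0.0401% in the pooled comparison, with 140, 100 and 171 at that p.

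The smallest unadjusted p in U5 in edgeR in the pooled comparison was at U170, a uridine of the Sm site. Its ends over its flanking mean were 1.62, 2.06 and 0.882 in WT + EV, 1.12, 0.888 and 0.796 in Δdbp7 + EV, 2.12, 2.79 and 1.23 in Δdbp7 + Dbp7WT, and 0.741, 1.21 and 1.03 in Δdbp7 + Dbp7DQGD. The sides overlapped, and the fitted difference was -0.88 on the log2 scale (SE 0.28, edgeR adjusted p = 1.000). G7 (0.64, SE 0.24) and U100 (-1.05, SE 0.40) followed, at the same adjusted value. In the EV pair the smallest p was at G22 in edgeR and DESeq2, where all WT + EV libraries had 0 ends, so no fold change is given. G137 (0.95, SE 0.39) and A152 (-1.01, SE 0.43) followed in edgeR. In limma it was at C147 (-0.81, SE 0.12, limma adjusted p = 0.156). In the plasmid pair it was, in edgeR, at A78 (-1.05, SE 0.37, edgeR adjusted p = 1.000), then at U170 (-1.01, SE 0.41) and U68 (-0.88, SE 0.36).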

How the data were processed

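The authors deposited 4 tables, 1 per group with 3 libraries each, that list, for each nucleotide of 11 RNAs, the count of reads that start there, of reads that end there, and both added, not normalized. They also deposited a score per nucleotide as a fraction from 0 to 1. Recomputed from the counts at the U5 nucleotides with flanking ends in every library, it differed by at most 4.99e-10. Scores of the other RNAs were not checked this way. Adapters were removed with cutadapt 2.0 and reads aligned with Bowtie2 2.3.4.1 per the submitters' processing notes, to the yeast transcriptome. The build is not given in the sources used here. The sources used here name no molecular identifiers. A further 24 columns of other scores were left aside. Groups and replicate numbers came from the titles. The series calls its triplicates biological.

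Counts were tested in R 4.3.3 with edgeR 4.0.16, one mean per group over 12 libraries, library size set to the rRNA ends, after a minimum of 10 ends per library, at an adjusted p under 0.05. For nucleotides the log of the flanking mean was the offset, for windows the ends on the RNA. DESeq2 1.42.0 and limma 3.58.1 (log2 with 0.5 added to the ends) were alternatives, and the steps were tested on simulated data. For ratios, exact permutation tests (two-sided) were run in Python 3.11.15. Lengths of SNR7-L and SNR7-S came from the RefSeq gene table of R64. Named were the 5 nucleotides with the highest and the lowest scores, pooled or averaged, those of loop 1, those with the 3 smallest p per comparison, and the 2 RNAs most like U5. U5, the lists and the tests were chosen with earlier results of these data known.

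Same-numbered libraries of the paired groups deviated together from their group means. Over 5318 nucleotides the correlation was 0.720, 0.402 and 0.534 in the EV pair and 0.853, 0.867 and 0.862 in the plasmid pair. The pairing comes from the data, as the labels give numbers only. For the levels of the 5 snRNAs the EV pair showed no such agreement (-0.768, 0.131 and -0.934).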

Additional observations from a re-analysis of the deposited data

Results flagged for a closer look

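Read ends appeared outside the RNAs compared. The copy b of U3, a box C/D RNA that guides early pre-rRNA cleavage, had 6 ends in WT + EV replicate 3, its highest library, while U14 had 0 in all 12. The 6 summed ends exceed the 3 that a count of 0 allows, but they are both ends of 3 reads, which equal that limit and do not exceed it. No comparison was made with it.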

How the results depend on the processing

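Of 327 alternative values, 315 kept their direction and their side of the threshold. Some could not change side, since exact tests with at most 3 libraries on a side give no p under 0.1. For the scan at a flanking mean of 10 the reference was a count of 0 with no U5 nucleotide tested. The U5 to rRNA difference passed in all alternatives in both pairs and pooled. The block on pairs gave 2.87 pooled (edgeR adjusted p = 2.84e-06) and changed no call. Leaving out 1 library gave 2.45 to 2.79 in the EV pair, 2.90 to 3.31 in the plasmid pair and 2.76 to 2.96 pooled. Δdbp7 + Dbp7DQGD minus Δdbp7 + EV, not called, turned to 0.38 with 5.8S rRNA as reference and ran from -0.265 to 0.0376 with 1 library left out, turning without Δdbp7 + EV replicate 1.

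U5 relative to the other snRNAs turned in the EV pair to -0.0788 against U4, -0.0400 against U6 and -0.0547 against both, and in the pooled comparison to -0.0148 against U4. It lost its call at 0.17 against U6 and 0.10 against both. The references U4 with U6 and 5.8S rRNA were chosen after seeing the data. With 1 library left out it ran from 0.75 to 0.96 pooled. Sign flips over the pairs, as a block, gave an exact p of 0.0312 pooled.

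The long form ratio in the plasmid pair turned to 0.15 without Δdbp7 + Dbp7DQGD replicate 3, 0.07 without Δdbp7 + Dbp7WT replicate 1 and 0.28 without its replicate 2, in a range of -0.62 to 0.28. Pooled it ran from -0.56 to -0.17. The cause was not tested for any of these.

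Flanking minimums of 10, 50 and 100 left no U5 nucleotide to test, and U3 and U14 had too few ends for a ratio. Depth limits the scan and the long form ratio.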
